A study of Mus musculus with 6 samples.

Results

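The uroplakin genes Upk1a, Upk1b, Upk2, Upk3a and Upk3b were examined in the mouse bladder at embryonic day 13, ahead of the stage at which the urothelium matures. They were taken by their symbols in the array platform's annotation. All 5 were measured, with 9 probe sets among the 45037 on the array that are not controls, and the gene fit covered 18193 genes. Upk1b had 4 probe sets, Upk3b had 2, and Upk1a, Upk2 and Upk3a had 1 each.

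The urothelium arrays (labelled 5, 7 and 8) and the mesenchyme arrays (labelled 1, 2 and 4) hold RNA of the epithelium and of the surrounding mesenchyme of wild-type FVB/N embryos at Theiler stage 21, sex unknown. Both compartments came from bladders cut off above the ureters, loosened for 20 minutes in 20 µM EDTA and separated with a needle, and both were amplified in 2 rounds before hybridisation to an Affymetrix array. The labels say that samples were not pooled, but not that each array is a different embryo. A p-value here therefore only sets a difference against the scatter of these samples, and part of that scatter may be technical. With 3 arrays a group, the number of arrays limits the precision.

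Uroplakins are membrane proteins that pack into rigid plaques on the apical face of umbrella cells, the outermost layer of the mature urothelium, where they make the bladder wall a barrier to urine. Upk1a and Upk1b are tetraspanins, proteins with 4 membrane passes. The others cross the membrane once. Upk1a pairs with Upk2, and Upk1b with Upk3a or its relative Upk3b, and most of them leave the endoplasmic reticulum only with their partner. Upk3b is also a known marker of mesothelium, the cell layer that covers the outside of abdominal organs.

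Both compartments carried the markers of their labels. All 13 epithelial markers, among them the adhesion genes Cdh1 and Epcam, were higher in urothelium, and all 14 mesenchymal markers, among them the collagen gene Col1a1 and the growth factor receptor gene Pdgfra, were higher in mesenchyme. The mesenchyme arrays held a median of 2.56% of the urothelial signal of an epithelial marker, with a range of 0.49% to 6.25%. The urothelium arrays held a median of 3.49% of the mesenchymal signal of a mesenchymal marker, from 1.12% to 8.33%. Of other cell types, 8 of 10 smooth muscle markers, 9 of 9 endothelial, 5 of 8 macrophage and 2 of 3 measured red cell markers were higher in mesenchyme. The others did not pass in either direction. Over all genes 5.8% were higher in urothelium and 8.91% in mesenchyme. The beta-actin signal at the 3′ end over that at the 5′ end, a ratio that rises as amplified RNA gets shorter, was 8.60 on urothelium 5 and 8.40 on mesenchyme 1, against 2.29 to 4.89 on the other 4 arrays.

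Of the 5 uroplakin genes, Upk1b, Upk3a and Upk2 were higher in urothelium, and Upk1a and Upk3b did not pass the test in either direction. The background for this count is that 5.8% of all genes were higher in urothelium and 8.91% were higher in mesenchyme. The 3 genes had every urothelium array above every mesenchyme array, as 12.0% of all genes did. The test was limma's moderated test on log2(signal + 45.1), with a Benjamini-Hochberg adjusted p under 0.05 over all genes. Differences are log2 values of urothelium minus mesenchyme, and the constant added makes those of dim genes smaller than they would be without it. The median difference was 1.45 over the 5 genes and -0.11 over all genes. In bulk RNA, fewer cells of a type and less RNA per cell cannot be told apart.

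**Figure D1:**
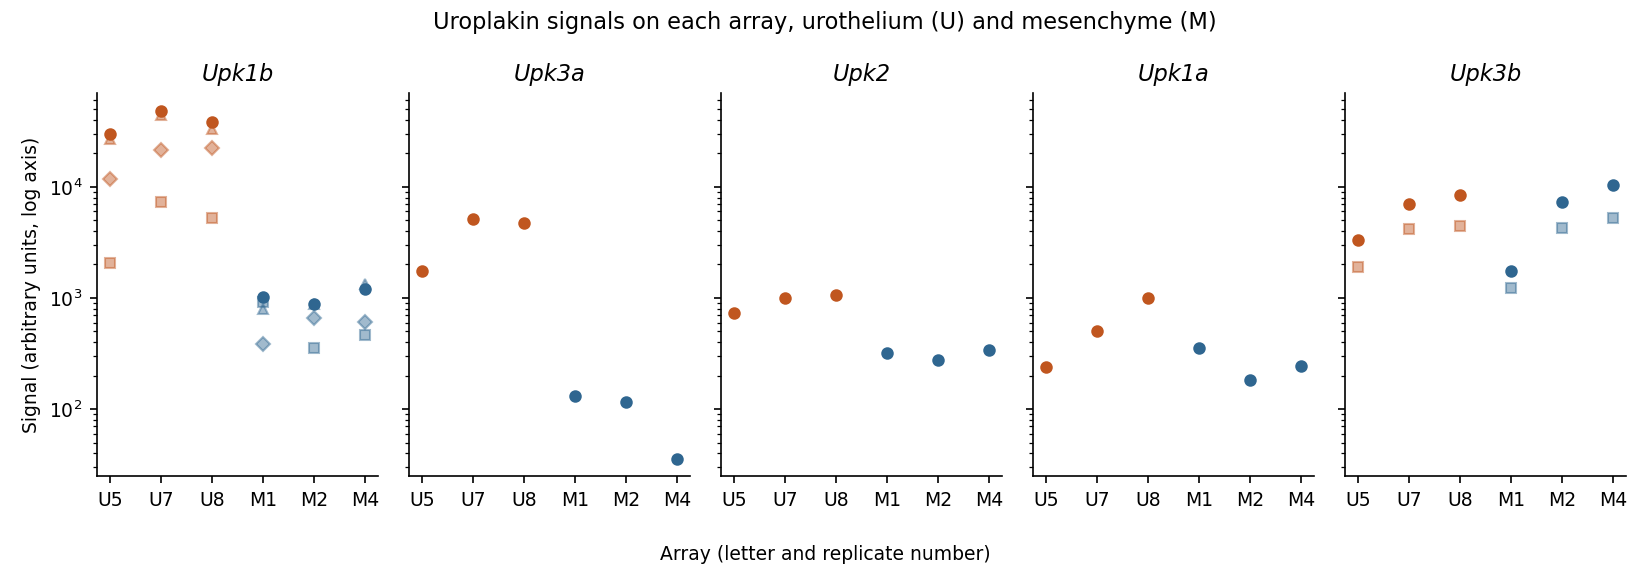
Signal of each uroplakin probe set (arbitrary units, log axis) on the 3 urothelium arrays (U5, U7 and U8, orange) and the 3 mesenchyme arrays (M1, M2 and M4, blue), with solid circles for the probe set used for the gene and paler symbols for its other probe sets. Levels of different probe sets are not comparable. Upk1b, Upk3a and Upk2 had every urothelium array above every mesenchyme array, while Upk1a and Upk3b overlapped.

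Upk1b, the tetraspanin that pairs with either of the Upk3 proteins, had a signal of 29765 on urothelium 5, 48218 on urothelium 7 and 38113 on urothelium 8, against 1019, 888 and 1216 on mesenchyme 1, 2 and 4. The arrays within each compartment lay close together, and the compartments were far apart. The means were 38698 ± 9241 in urothelium and 1041 ± 165 in mesenchyme (SD, n = 3 each), a 37.2-fold ratio. The log2 difference was 5.14 ± 0.27 (SE; limma adjusted p = 1.70e-06). The mesenchymal signal was 2.69% of the urothelial one, within the range of the epithelial markers given above.

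Upk3a, the single-pass partner of Upk1b whose loss in mice leaves a leaky urothelium, had 1745, 5169 and 4734 on urothelium 5, 7 and 8, against 131.1, 116.0 and 35.9 on mesenchyme 1, 2 and 4. Urothelium 5 was well below the other urothelium arrays and still far above every mesenchyme array. The means were 3883 ± 1864 in urothelium and 94.3 ± 51.2 in mesenchyme (SD, n = 3 each), and the log2 difference was 4.75 ± 0.51 (SE; limma adjusted p = 8.45e-05). In mesenchyme the signal was 2.43% of that in urothelium, also inside the epithelial markers' range. The mesenchymal signals were below the medians of their arrays (239.7, 182.9 and 161.4 on mesenchyme 1, 2 and 4). Without detection calls, the part of background in this share is not known.

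Upk2, the single-pass partner of Upk1a, differed far less in size. Its signal was 737.6, 997.9 and 1072 on urothelium 5, 7 and 8, against 317.1, 277.4 and 338.5 on mesenchyme 1, 2 and 4. No arrays overlapped. The means were 936.0 ± 175.8 in urothelium and 311.0 ± 31.0 in mesenchyme (SD, n = 3 each), a 3.01-fold ratio, and the log2 difference was 1.45 ± 0.37 (SE; limma adjusted p = 0.0226). Its mesenchymal signal was 33.2% of the urothelial one, above the range of the epithelial markers. The median signals of mesenchyme 1, 2 and 4 were 239.7, 182.9 and 161.4. Background raises such a share for a dim gene, and no detection calls were used. Expression of Upk2 in mesenchyme therefore cannot be read from this share. The call was lost when mesenchyme 2, mesenchyme 4, urothelium 7 or urothelium 8 was left out, with limma adjusted p between 0.0666 and 0.108, while the difference stayed between 1.35 and 1.505.

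Upk1a, the tetraspanin partner of Upk2, had 236.8, 506.6 and 1007 on urothelium 5, 7 and 8, against 354.2, 183.0 and 242.3 on mesenchyme 1, 2 and 4. Urothelium 7 and 8 were above every mesenchyme array, and urothelium 5 was below mesenchyme 1 and 4. The log2 difference was 0.88 ± 0.52 (SE; limma adjusted p = 0.351), with a 95% confidence interval from -0.28 to 2.04, so a difference of about the size found for Upk2 lay within the interval. Its values spanned 1.90 on the log2 scale within urothelium and 0.81 within mesenchyme. With arrays weighted by limma from their scatter in the fit, the difference was 1.11 and passed the test (limma adjusted p = 0.0421). These weights use no measure of RNA quality, and with them 2055 of all genes were higher in urothelium, against 1055 without. With the beta-actin ratio as a covariate the difference of Upk1a was 0.91 (limma adjusted p = 0.261). Without mesenchyme 1 and urothelium 5 together it was 1.57 (limma adjusted p = 0.0506).

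Upk3b, the alternative partner of Upk1b, had 3321, 6955 and 8404 on urothelium 5, 7 and 8, against 1759, 7278 and 10343 on mesenchyme 1, 2 and 4. The compartments overlapped across most of their range, and the array with the highest beta-actin ratio was the lowest in each. The means were 6227 ± 2618 in urothelium and 6460 ± 4350 in mesenchyme (SD, n = 3 each). The log2 difference was 0.18 ± 0.58 (SE; limma adjusted p = 0.902), with a 95% confidence interval from -1.11 to 1.47. A difference of the size seen for Upk1b or Upk3a lay outside that interval, and one of the size of Upk2 lay at its edge. Without mesenchyme 1 and urothelium 5 together the difference was -0.18 (limma adjusted p = 0.699), and it was also below 0 without mesenchyme 1 alone (-0.58) or urothelium 8 (-0.09) and with array weights (-0.24).

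The probe sets of a gene were next compared with each other in a fit of all 45037 probe sets. Of the 9 uroplakin probe sets 6 were higher in urothelium, where 2.88% of all probe sets were. The 6 comprised all 4 of Upk1b and those of Upk2 and Upk3a. The probe sets of Upk1a and Upk3b did not pass.

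Upk1b probe set 1435831_at differed by 5.14, 1455464_x_at by 5.05 and 1457065_at by 4.94, within 1 SE of each other. Probe set 1439760_x_at differed by 2.90 ± 0.49 (limma adjusted p = 0.00387). It read 2072, 7371 and 5249 on urothelium 5, 7 and 8, against 928.2, 356.2 and 465.6 on mesenchyme 1, 2 and 4, so its mesenchymal signal was 11.9% of the urothelial one. In Affymetrix naming the ending _x_at marks probes that may bind other transcripts, and _s_at marks probes shared by several transcripts. The ending alone did not separate the probe sets, since 1455464_x_at was close to 1435831_at, with which it shares the sequence it was designed from.

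Upk3b probe set 1434237_at, which carries neither ending, read 1899, 4159 and 4427 on urothelium 5, 7 and 8, against 1227, 4233 and 5267 on mesenchyme 1, 2 and 4. Its log2 difference was 0.11 ± 0.53 (limma adjusted p = 0.951), close to the 0.18 of 1454881_s_at, and it put the arrays of each compartment in the same order. Both Upk3b probe sets were designed from the same transcript sequence by the platform's annotation.

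**Figure D2:**
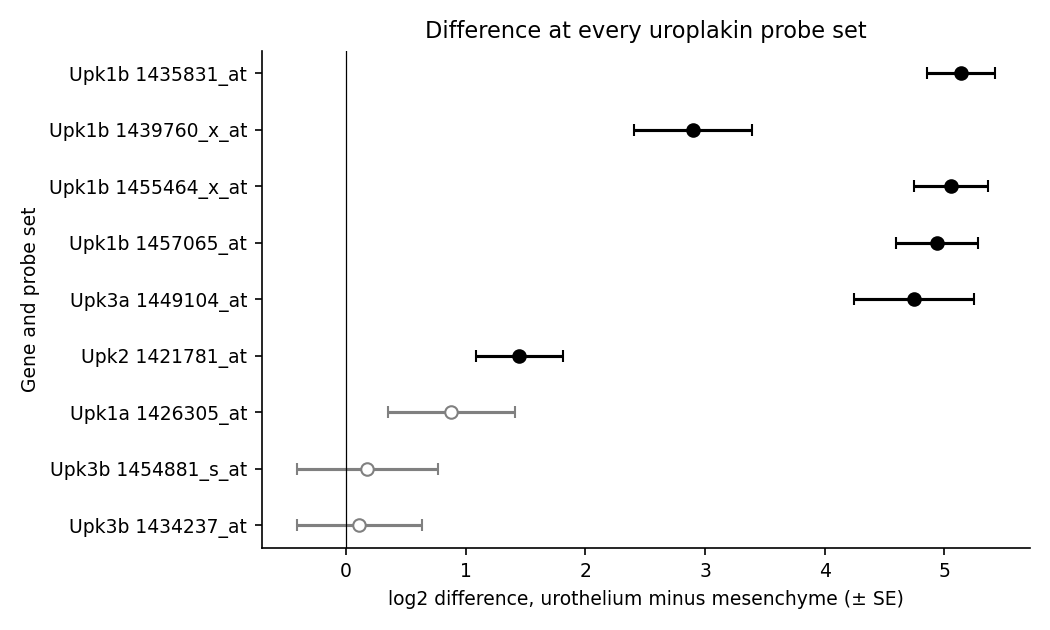
The log2 difference of urothelium minus mesenchyme at each of the 9 uroplakin probe sets, with its SE in the fit of all probe sets; filled points are past the test and open points are not. Points of 3 Upk1b probe sets lie between 4.94 and 5.14 and the fourth at 2.90, and both Upk3b probe sets lie near 0.

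Because uroplakins act in pairs, the log2 ratio of 2 genes on the same array was compared between compartments for all 10 pairs. A two-sided exact permutation test over 3 against 3 arrays cannot give a p below 0.10, so none of these tests could reach 0.05. The ratio shows whether 2 genes differ unequally between compartments, and its own level has no meaning because it sets one probe set against another.

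The ratio of Upk1b to Upk3a was 4.06, 3.21 and 2.997 on urothelium 5, 7 and 8, against 2.59, 2.53 and 3.96 on mesenchyme 1, 2 and 4. These values overlapped, and the difference was 0.39 (exact permutation p = 0.50; also 0.50 adjusted over 10 pairs). The sign and the overlap depended on the constant added to the signals. With a constant of 178.9 the difference was 1.20 and the arrays were separate (exact permutation p = 0.10), and with a constant of 1 it was -0.20 (exact permutation p = 1.0).

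The ratio of Upk2 to Upk1a was 1.47, 0.92 and 0.09 on urothelium 5, 7 and 8, against -0.14, 0.50 and 0.42 on mesenchyme 1, 2 and 4. The values overlapped and differed by 0.57 (exact permutation p = 0.30; 0.375 adjusted over 10 pairs). With the constant of 45.1, the ratios of Upk1b to Upk3a and of Upk2 to Upk1a thus overlapped between compartments. That of the partners Upk1b and Upk3b, given next, did not.

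The ratio of Upk1b to its other partner Upk3b was 3.15, 2.79 and 2.18 on urothelium 5, 7 and 8, against -0.76, -2.97 and -3.04 on mesenchyme 1, 2 and 4. The compartments were separate, with a difference of 4.96 and the smallest p the design allows (exact permutation p = 0.10; 0.167 adjusted over 10 pairs). The same p was found for Upk3a over Upk3b, with a difference of 4.57. It was also found for both Upk1b and Upk3a over Upk2 (3.69 and 3.30) and over Upk1a (4.26 and 3.87). The arrays of the compartments did not overlap in any of these 6 pairs. Each sets Upk1b or Upk3a against Upk2, Upk1a or Upk3b, so the pairs restate the differences of the single genes. The share of other gene pairs without overlap was not counted. In the other 4 pairs, all among Upk1a, Upk2 and Upk3b or between Upk1b and Upk3a, they overlapped. By the size of the difference the genes stood in the order Upk1b, Upk3a, Upk2, Upk1a and Upk3b, and of the neighbours in this order Upk3a and Upk2 were separated in their ratio while, with the constant of 45.1, the other 3 neighbouring pairs overlapped.

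**Figure D3:**
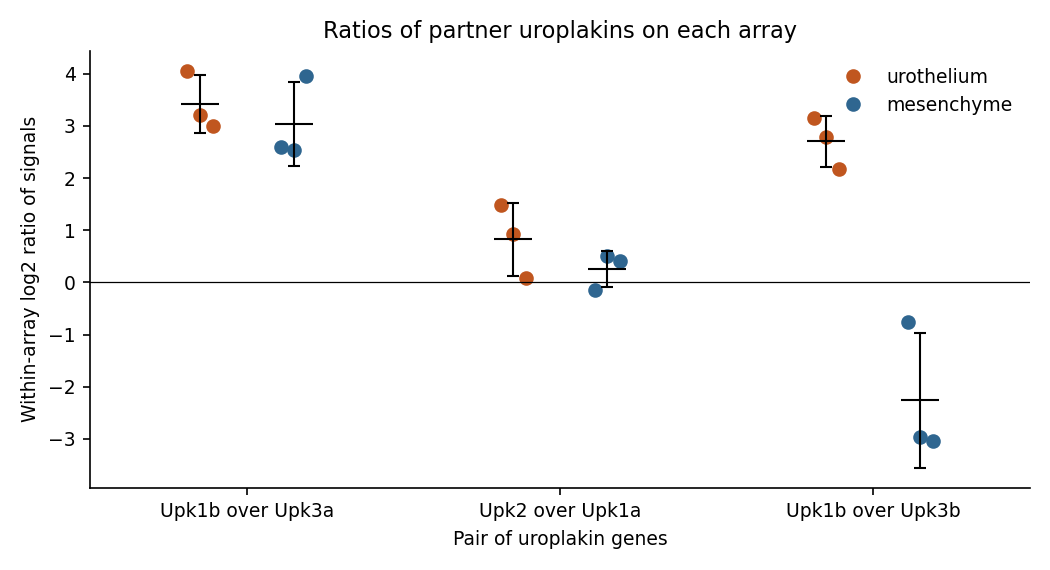
Within-array log2 ratios of 3 pairs of uroplakin genes on the urothelium arrays (orange) and mesenchyme arrays (blue), with the mean and SD of 3 arrays in black and the constant of 45.1 added to the signals. The compartments overlap for Upk1b over Upk3a and for Upk2 over Upk1a, and are apart for Upk1b over Upk3b, from 2.18 to 3.15 in urothelium and from -3.04 to -0.76 in mesenchyme.

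Among the urothelium arrays, urothelium 5 was the lowest for all 5 genes. Urothelium 7 was the highest for Upk1b and Upk3a, and urothelium 8 for Upk2, Upk1a and Upk3b. Among the mesenchyme arrays, mesenchyme 1 was the lowest for Upk3b but the highest for Upk1a and Upk3a. The part of the beta-actin ratio in these orders was not tested. Without urothelium 5 and mesenchyme 1, and in a fit with the beta-actin ratio as a covariate, Upk1b, Upk3a and Upk2 were past the test as before.

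The genes whose pattern was most like each uroplakin were found by the root mean square difference of log2 values over the 6 arrays, each gene centred on its own mean, among 9092 other genes with a mean above the median. The gene nearest to Upk3a was Pparg, which encodes the nuclear receptor PPAR gamma, with a root mean square difference of 0.20. Pparg had 4550, 13140 and 12146 on urothelium 5, 7 and 8, against 364.9, 240.5 and 175.8 on mesenchyme 1, 2 and 4. Both genes were low on urothelium 5 relative to the other urothelium arrays and lowest on mesenchyme 4. The next were Tmem45b (0.35) and Entpd3 (0.41), which encodes an ectonucleotidase.

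Nearest to Upk1b were Cracdl (0.24), Cdcp1 (0.27) and Erbb3 (0.28), the gene of an ErbB family receptor, and these differed by 4.99, 4.85 and 5.10. Nearest to Upk2 were the cyclin-dependent kinase inhibitor gene Cdkn1a (0.11), the LIM domain gene Lmo4 (0.12) and Susd4 (0.13). Nearest to Upk1a were the apical polarity gene Crb3 (0.22), the hexokinase gene Hk2 (0.24) and Zfp692 (0.26), which like Upk1a did not pass (limma adjusted p = 0.176, 0.544 and 0.120). Nearest to Upk3b were the DNA glycosylase gene Neil1 (0.13), Slc25a39 (0.16) and Stx6 (0.18), which shared its low signals on mesenchyme 1 and urothelium 5. Stx6, for example, had 8633, 12659 and 16993 on urothelium 5, 7 and 8, against 3390, 17284 and 19958 on mesenchyme 1, 2 and 4. The distances are descriptions over 6 arrays and carry no test. These genes were chosen for their likeness on the same arrays, so similar differences and shared low arrays follow from the choice. The mean of Upk1a itself was not above the median required of the candidates.

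Genes that carry uroplakins to the apical surface were read next. The gene lists of this report were chosen with earlier results of these data known, so their counts are descriptions. In a list of 15 plaque trafficking genes, which also holds the relative Upk3bl, 8 were higher in urothelium and 1 in mesenchyme. Over all genes 5.8% were higher in urothelium and 8.91% in mesenchyme. The median difference of the list was 1.26 against -0.11 over all genes. Mal, which encodes a membrane protein that brings uroplakin vesicles into the apical membrane, had 8601, 10551 and 11564 on urothelium 5, 7 and 8, against 30.9, 85.6 and 184.7 on mesenchyme 1, 2 and 4 (difference 6.28 ± 0.42, limma adjusted p = 4.71e-06). Rab27b, a GTPase gene of the fusiform vesicles that store uroplakins, differed by 5.54 ± 0.28 (1.46e-06). No mesenchyme array of either gene came near the urothelium arrays.

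Sytl2, the gene of a Rab27 effector, differed by 2.87 ± 0.31, and Snx31, a sorting nexin gene active in uroplakin turnover, by 3.12 ± 0.51 (limma adjusted p = 8.23e-05 and 0.00166). Vamp8, a SNARE gene of vesicle fusion, differed by 0.70 ± 0.34 and did not pass (limma adjusted p = 0.232). The others higher in urothelium were Mal2, Rab11a, Myo5b and Upk3bl, and the 1 higher in mesenchyme was Sec23a, a coat gene of export from the endoplasmic reticulum. These 5 were named after their values were seen. With arrays centred on their medians Sec23a was not past the test.

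Upk3bl, a relative of Upk3b and its neighbour on chromosome 5, had 1535, 2834 and 3637 on urothelium 5, 7 and 8, against 220.7, 90.8 and 81.0 on mesenchyme 1, 2 and 4. The log2 difference was 3.95 ± 0.46 (limma adjusted p = 0.000161), and no arrays overlapped, in contrast to the overlap of Upk3b. The difference between these 2 genes was not itself tested.

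Among the relatives of Upk1a and Upk1b, 7 of 27 measured tetraspanin genes were higher in urothelium and 5 in mesenchyme, with a median of -0.06. The shares over all genes were 5.8% in urothelium and 8.91% in mesenchyme. Tspan8 differed by 7.18 ± 0.28 and Tspan1 by 6.13 ± 0.39, both more than Upk1b, and Cd9 by 3.71 ± 0.29 (limma adjusted p = 4.98e-07, 3.65e-06 and 1.21e-05). Tspan8 had 41771, 37819 and 27264 on urothelium 5, 7 and 8, against 179.0, 211.2 and 203.3 on mesenchyme 1, 2 and 4. Cd151, a partner of laminin-binding integrins, differed by 0.87 ± 0.35 (limma adjusted p = 0.147) with overlapping arrays. Without mesenchyme 1, mesenchyme 4 or urothelium 8, the count in urothelium was 4.

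Of 21 measured transcription factors of urothelial development, 15 were higher in urothelium and 3 in mesenchyme, with a median of 3.31. Among all genes 5.8% were higher in urothelium and 8.91% in mesenchyme. Grhl3, a grainyhead-like factor needed for umbrella cells to mature in the mouse bladder, had 6859, 12802 and 9940 on urothelium 5, 7 and 8, against 176.3, 163.8 and 105.6 on mesenchyme 1, 2 and 4 (difference 5.65 ± 0.35, limma adjusted p = 3.38e-06). Foxa1, Pparg, Klf5 and Gata3, which are tied to the luminal urothelial program, differed by 7.92, 4.93, 3.42 and 3.31. Rxra, which encodes the partner of PPAR gamma on DNA, differed by 1.28 ± 0.33 (limma adjusted p = 0.0248). Elf3, an ETS factor gene of superficial cells, had 640.6, 1271 and 1210 on urothelium 5, 7 and 8, against 692.6, 354.6 and 313.5 on mesenchyme 1, 2 and 4. It overlapped between compartments and did not pass (1.14 ± 0.44, limma adjusted p = 0.123).

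Markers of urothelial layers were read as the setting in which the uroplakins were measured. Of 18 measured luminal and superficial markers 12 were higher in urothelium and 1, Prom1, in mesenchyme (median 3.39), beside 5.8% and 8.91% of all genes. Krt18, a keratin of simple epithelia, differed by 3.68 ± 0.31 (limma adjusted p = 2.05e-05). Krt20, the keratin of mature umbrella cells, read 102.1, 178.6 and 176.3 on urothelium 5, 7 and 8, against 177.9, 140.4 and 89.9 on mesenchyme 1, 2 and 4. It overlapped throughout (0.13 ± 0.40, limma adjusted p = 0.898). The call of Prom1, named after its value was seen, was lost without mesenchyme 1, mesenchyme 2, mesenchyme 4 or urothelium 7.

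Of 16 basal and intermediate markers 6 were higher in urothelium and 2 in mesenchyme (median 1.14), beside 5.8% and 8.91% of all genes. Trp63, the p63 gene of basal cells, Shh, the hedgehog ligand gene, and Krt15 differed by 8.23, 8.10 and 7.48. Krt5, the keratin of adult basal cells, had 828.3, 675.7 and 1994 on urothelium 5, 7 and 8, against 733.5, 213.6 and 85.8 on mesenchyme 1, 2 and 4, and did not pass (1.87 ± 0.65, limma adjusted p = 0.0864). The signal of the Krt14 probe set was higher in mesenchyme (-1.97 ± 0.44, limma adjusted p = 0.0108). It read 107.0, 19.1 and 83.4 on urothelium 5, 7 and 8, against 375.8, 397.6 and 359.2 on mesenchyme 1, 2 and 4. This probe set carries the ending _x_at, which marks probes that may bind other transcripts. Whether its mesenchymal signal comes from Krt14 was not tested, and no detection calls were used. The second member higher in mesenchyme was Cd44, named after its value was seen, and without urothelium 7 that count was 1.

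**Figure D4:**
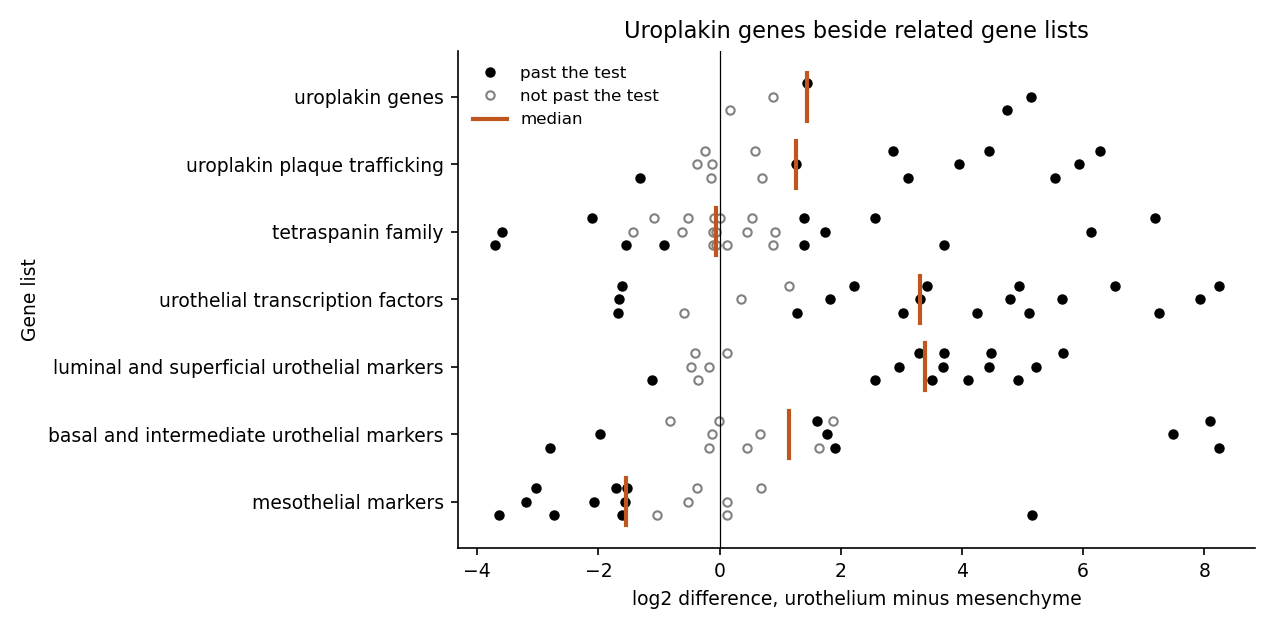
The log2 difference of urothelium minus mesenchyme for the 5 uroplakin genes and for the measured genes of 6 lists, 1 point a gene (filled where past the test, open where not), with each list's median as an orange line. Medians run from -1.54 for mesothelial markers to 3.39 for luminal and superficial markers, and the uroplakin genes span 0.18 to 5.14.

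Since Upk3b also marks mesothelium, the mesothelial markers were read beside it. Of 16 markers 9 were higher in mesenchyme and 1 in urothelium, with a median of -1.54. The shares of all genes were 8.91% in mesenchyme and 5.8% in urothelium. Their summed signal was 7798 to 10314 on the urothelium arrays and 15650 to 22572 on the mesenchyme arrays. The sum adds probe sets whose levels are not comparable, and on the urothelium arrays it holds 1434 to 3883 from Msln alone. It is therefore no measure of mesothelial content. Without mesenchyme 4 or urothelium 7, the count higher in mesenchyme was 5.

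Wt1, the gene of the Wilms tumour transcription factor, had 199.4, 131.4 and 137.5 on urothelium 5, 7 and 8, against 1748, 1275 and 2492 on mesenchyme 1, 2 and 4 (-3.19 ± 0.40, limma adjusted p = 0.000270). Lrrn4, a gene of a leucine-rich repeat protein, differed by -3.02 ± 0.46 and Bnc1, the basonuclin gene, by -2.74 ± 0.51 (limma adjusted p = 0.000945 and 0.00351). Gpm6a, a membrane glycoprotein gene, differed by -2.07 ± 0.59 (limma adjusted p = 0.0381), and its mesenchyme 1 value of 120.4 was far below 834.5 and 616.3 on mesenchyme 2 and 4. Msln, the mesothelin gene, went the other way, with 1434, 2279 and 3883 on urothelium 5, 7 and 8, against 50.3, 12.1 and 8.90 on mesenchyme 1, 2 and 4 (5.16 ± 0.48, limma adjusted p = 3.47e-05). The mean urothelial signal of a marker was a median of 31.5% of its mesenchymal mean over the 16 markers, with a range of 5.77% to 10648%, and that of Upk3b was 96.4%. Some of the markers were dim in both compartments, where background flattens differences, so their shares and that of Upk3b are not directly comparable. The part of mesothelial cells in the Upk3b signal of either compartment was not tested.

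**Figure D5:**
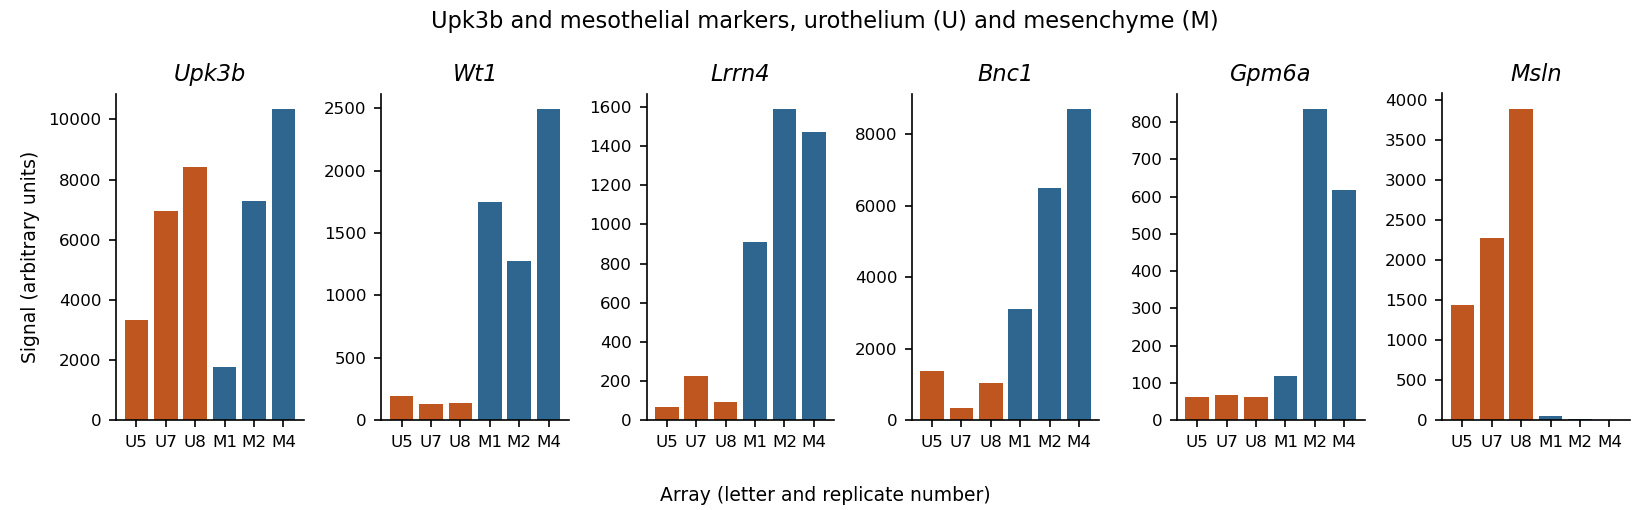
Signal (arbitrary units, linear axis from 0, a scale for each gene) of Upk3b and 5 mesothelial markers on the urothelium arrays (U5, U7 and U8, orange) and mesenchyme arrays (M1, M2 and M4, blue). Wt1, Lrrn4, Bnc1 and Gpm6a are higher on every mesenchyme array, Msln on every urothelium array, and Upk3b overlaps.

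The start regions of Upk3a and Upk3b are shown because these related genes, which share the partner Upk1b, stood apart in the comparison of compartments. The sequences are the 250 bases before the start of each gene, 5′ to 3′ on the gene's strand, from RefSeq on build GRCm38.p6. Upk3a lies on the plus strand at chr15:85016891-85017140 and Upk3b on the plus strand at chr5:136038246-136038495. Capitals mark matches to the motifs named after them.
Upk3a: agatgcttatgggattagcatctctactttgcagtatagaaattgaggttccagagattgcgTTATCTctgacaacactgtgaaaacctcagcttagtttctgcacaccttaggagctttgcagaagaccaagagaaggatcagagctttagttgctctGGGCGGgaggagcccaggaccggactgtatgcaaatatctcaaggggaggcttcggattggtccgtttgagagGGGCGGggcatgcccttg
Upk3b: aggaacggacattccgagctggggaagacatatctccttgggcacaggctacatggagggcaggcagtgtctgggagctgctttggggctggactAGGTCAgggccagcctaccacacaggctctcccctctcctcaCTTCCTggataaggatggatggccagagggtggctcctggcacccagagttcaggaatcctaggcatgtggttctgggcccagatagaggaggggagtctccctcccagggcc

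Of 8 motifs searched on both strands, the Upk3a window held the GATA motif AGATAA, found in 9.99% of 32851 windows of the same length. It also held the GC box GGGCGG at 2 places (in 32.7% of windows). The Upk3b window held the ETS motif AGGAAG (29.5%) and the nuclear receptor motif AGGTCA (14.0%). Neither held the grainyhead-like motif AACCNGTT (1.79%), the FOXA motif TGTTTAC (3.17%), the AP-2 motif GCCNNNGGC (13.7%) or the TATA box TATAAA (12.4%). No motif matches overlapped in these windows. In the same search the Upk3bl window held a grainyhead-like match, AACCAGTT, and the Upk1a window held none of the motifs. Windows of Upk1b and Upk2 were not available. The matches describe letters in the windows and do not show binding.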

How the data were processed

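The deposited values are intensity on a linear scale, 1 signal per probe set, made with Affymetrix's GCOS software per the submitters' processing notes. No source used here gives the summary algorithm, its settings or a genome build. Every array had the same 2% trimmed mean of 1500, so the arrays were not scaled again. A common scale of this kind cannot show whether a compartment holds more RNA per cell, and background flattens the differences of dim probe sets. No detection calls were used.

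Probe sets were named where the platform annotation gives 1 symbol, which held for 34945 of 45101, while 932 had several and 9160 had none; 64 controls were left out. Entrez identifiers matched 34741 of the 34945 to RefSeq and changed 0 symbols. The probe set with the highest mean log2 value stood for its gene, for 9010 genes with several probe sets. A linear model of compartment was fitted to log2(signal + 45.1), whose constant is the 25th percentile of the table, with limma 3.58.1 in R 4.3.3 (eBayes with an intensity trend), and checked on simulated data. Ratios within an array were compared by exact permutation. The replicate numbers do not overlap between compartments, and the labels give no batch.

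The uroplakin genes, gene lists, motifs, named genes and alternatives were chosen with earlier results of these data known. Named genes were the 5 uroplakins, a fixed set of list members whether or not they passed, and the 3 genes nearest to each uroplakin. Genes outside this rule are named as chosen after their values were seen.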

Additional observations from a re-analysis of the deposited data

How the results depend on the processing

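Upk1b and Upk3a passed limma's test under all 16 alternatives run, with differences of 4.51 to 5.34 and 3.78 to 5.45. No paired analysis was possible because urothelium and mesenchyme share no replicate number in the labels. Leaving out each array in turn gave 2 to 3 uroplakin genes past the test, and 4 passed with array weights, which added Upk1a (1.11). The difference of Upk2 then ranged from 1.35 to 1.60. It was 1.62 without mesenchyme 1 and urothelium 5 together, and its call was lost without mesenchyme 2 (1.38), mesenchyme 4 (1.505), urothelium 7 (1.40) or urothelium 8 (1.35). For Upk1a the range was 0.41 to 1.36, and without mesenchyme 1 and urothelium 5 together its difference was 1.57 (limma adjusted p = 0.0506). The difference of Upk3b ranged from -0.58 to 0.68 over these fits, was -0.09 without urothelium 8, -0.24 with array weights and -0.18 without mesenchyme 1 and urothelium 5, and did not pass under any of the 16 alternatives (limma adjusted p of 0.418 to 0.984). The cause of these changes was not tested. Median centring moved the median of all genes by 0.19 and every uroplakin difference with it, and ended no uroplakin call. The ratio of Upk1b to Upk3a differed by 1.20 with a constant of 178.9 (exact permutation p = 0.10), by -0.20 with a constant of 1 (exact permutation p = 1.0) and by 0.07 to 0.86 when 1 array was left out.

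Over all genes, 1055 were higher in urothelium and 1621 in mesenchyme. Array weights gave 2055 and 2996. A fit of genes above the median signal alone, in which dimmer genes were not tested, gave 998 in mesenchyme. Leaving out 1 array gave 660 to 1059 and 1140 to 1679, with the 660 without urothelium 7. Without mesenchyme 1 and urothelium 5 together, 1225 were higher in urothelium. Of 192 counts of list members under alternatives, 174 were within 1.5 times the main count. Beyond it, tetraspanins higher in mesenchyme were 8 against 5 with array weights. Mesothelial markers higher in mesenchyme were 2 against 9 among genes above the median signal, and those higher in urothelium were 0 there and 2 with array weights, against 1. Basal markers higher in mesenchyme were 0 against 2 among genes above the median signal. That fit left out dimmer genes before testing, so its lower counts include members that were not tested. The call of Prom1 was also lost with median centring and without the intensity trend. With no detection calls, it cannot be said whether the mesenchymal signals of Upk1a, Upk2 and Upk3a lie above background.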
